A study of Mus musculus with 33 samples.

Results

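The proneural and OLIG factors are 9 genes of the basic helix-loop-helix (bHLH) class of transcription factors. They are the neurogenins Neurog1 and Neurog2, the NeuroD factors Neurod1 and Neurod4, Atoh1, Ptf1a, and the OLIG factors Olig1, Olig2 and Olig3. They were chosen by gene symbol, and all 9 were found among the 37991 genes counted in each of 33 RNA-seq libraries. The libraries come from the mouse embryonic stem cell line E14TG2a, sampled as undifferentiated cells (mESCs), as embryoid bodies (EBs, cell aggregates that differentiate spontaneously) on day 8, and as EBs that were given 5 µM all-trans retinoic acid from day 4 and taken on day 8 (EBs + RA). Retinoic acid (RA) drives EBs towards neural fates.

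Each stage was sequenced in 4 genotypes, all made by CRISPR/Cas9. Control clones #1, #4 and #7 had received the empty pX330 vector, Neil1-mutant clones #7, #9 and #11 and Neil2-mutant clones #1, #11 and #14 carry deletions in these DNA glycosylase genes, and the Apex1 mutant, in the gene of an abasic-site endonuclease, is the single clone #46 sequenced as technical duplicates. There were thus 3 clones for each control, Neil1 and Neil2 group and 2 libraries of 1 clone for each Apex1 group. P-values for Apex1 against another genotype thus measure the spread of that genotype's clones and of technical duplicates only. Those for Apex1 EBs + RA against Apex1 EBs measure the spread of technical duplicates only. The same control clones serve every mutant, and the comparisons with control are therefore not independent of each other. In both the induced and the uninduced EBs the same clone was used, because EBs were divided on day 4.

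Between 21523742 and 48350904 reads per library were assigned to genes, and levels are given as CPM, the counts of a gene per 1000000 counts on genes. Counts summed over a gene do not check the labels here. The deletions were designed to remove only the region that codes for the active site. The exon bases that remain were not counted, and the cause of levels above control was not tested. Mean Neil1 CPM in the Neil1 mutant was 44.6% of the control mean in EBs, 44.8% in EBs + RA and 153% in mESCs, where the libraries ranged from 2.51 to 31.6 CPM (controls 7.67 to 9.83 CPM) and the mean without the highest, clone #7, was 54.3%. By stage, Neil2 in the Neil2 mutant was between 63.1% and 136%, and Apex1 in the Apex1 mutant between 447% and 655%. Among the 3 mESC control libraries, clone #7 stood apart from the others, and results that rest on it are given with and without it.

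Proneural factors bind DNA as heterodimers with ubiquitous E proteins and switch on neuronal differentiation genes, including Notch ligands, while the HES and HEY repressors downstream of Notch and the ID proteins, which sequester E proteins, hold them in check. Neurogenins act first and NeuroD factors follow in the same cascade, whereas Atoh1 and Ptf1a each specify particular dorsal progenitors of the spinal cord and hindbrain, and Ptf1a also serves in the pancreas. Olig2 marks progenitors of motor neurons and oligodendrocytes, Olig1 is its close relative in oligodendrocyte development, and Olig3 marks dorsal neural progenitors. RA is known to induce neurogenins in differentiating embryonic stem cells.

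The genes lie on 6 chromosomes (NCBIM37, GENCODE M1). Neurog1 is at chr13:56351866-56353524 on the minus strand, Neurog2 at chr3:127336054-127338549 on the plus strand, Neurod1 at chr2:79292678-79296908 on the minus strand and Neurod4 at chr10:129705209-129717296 on the minus strand. Atoh1 is at chr6:64679140-64681227 and Ptf1a at chr2:19367290-19369128, both on the plus strand. Olig2, at chr16:91225795-91228922, lies 41091 bases before Olig1, at chr16:91270014-91272184, with both on the plus strand, and Olig3 is at chr10:19076366-19078412 on the plus strand. Neurog1, Atoh1, Olig1 and Olig3 are each annotated as 1 exon block and the other genes as 2. Exons of Neurod1 overlap the same-strand gene Cerkl by 227 bases, where reads cannot be split between the pair, but Cerkl had between 1 and 30 counts in any library. Gm13336, antisense to Ptf1a over 609 exon bases, had at most 1 count, although the library kit did not mark strand and reads from the pair could not be told apart.

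Promoter sequences are shown for the 3 genes with the highest level per exon length after RA and for Olig3, whose direction under RA differed between control and Neil-mutant clones. The windows are the 250 bases before the RefSeq start (GRCm38.p6, a later build than that of the counts). Capitals mark CANNTG, the E-box that bHLH dimers bind, TATAA, and AGGTCA, the half-site of retinoic acid receptors, on either strand.
Neurog1 (chr13:56252181-56252430, minus strand): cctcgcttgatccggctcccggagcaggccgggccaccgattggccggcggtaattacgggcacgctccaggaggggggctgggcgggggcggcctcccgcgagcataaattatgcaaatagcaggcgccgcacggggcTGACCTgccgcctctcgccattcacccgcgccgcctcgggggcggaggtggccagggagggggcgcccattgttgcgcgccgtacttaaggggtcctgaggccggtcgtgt
Neurog2 (chr3:127632886-127633135, plus strand): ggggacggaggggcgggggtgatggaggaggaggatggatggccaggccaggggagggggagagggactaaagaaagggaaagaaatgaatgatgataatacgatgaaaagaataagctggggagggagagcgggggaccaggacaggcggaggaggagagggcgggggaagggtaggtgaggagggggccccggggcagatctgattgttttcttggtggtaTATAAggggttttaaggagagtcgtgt
Neurod1 (chr2:79456637-79456886, minus strand): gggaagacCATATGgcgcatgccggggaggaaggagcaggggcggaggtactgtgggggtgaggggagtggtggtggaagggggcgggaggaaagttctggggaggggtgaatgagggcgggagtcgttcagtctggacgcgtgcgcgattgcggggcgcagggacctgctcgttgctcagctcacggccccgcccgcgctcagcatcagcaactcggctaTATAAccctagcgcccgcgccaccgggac
Olig3 (chr10:19356289-19356538, plus strand): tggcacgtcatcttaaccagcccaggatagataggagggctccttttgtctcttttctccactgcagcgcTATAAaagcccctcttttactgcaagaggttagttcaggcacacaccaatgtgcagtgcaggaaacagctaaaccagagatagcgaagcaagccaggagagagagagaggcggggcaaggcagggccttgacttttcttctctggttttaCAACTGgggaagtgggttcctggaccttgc

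In these windows Neurog1 holds 1 AGGTCA match, written TGACCT on the gene's strand, 111 to 106 bases before the start. Neurog2 and Neurod1 each hold TATAA close to the start, at 27 to 23 and 29 to 25 bases before it. Of the 9 genes, 8 had an entry in the RefSeq promoter table, with 2 starts for Neurod4, and Olig1 had none. CANNTG was present in 2 of these 8 genes (Neurod1 and Olig3), compared with 66.2% of 32851 promoters of the same length. TATAA was present in 5 of the 8 (Neurog2, Neurod1, Ptf1a, Olig2 and Olig3), compared with 22.8% of all promoters. AGGTCA was present in 1, compared with 14.0%. These shares count starts, of which the 8 genes have 9, with TATAA in 5 of them. In Ptf1a, Olig2 and Olig3 the TATAA letters are 53 to 48, 8 to 4 and 180 to 176 bases before the start. These are matches of letters and not sites shown to be bound.

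The first comparison asks how the control clones change between mESCs and EBs without RA. All levels are TMM-normalized CPM per library, in the order of the clone numbers, and a gene was called at an edgeR Benjamini-Hochberg adjusted p below 0.1 with a log2 fold change of more than 0.5 in size. Neurod1, which drives neuronal and endocrine differentiation, was the highest of the 9 genes per exon length in control mESCs, with 2.74 ± 1.08 CPM per kb of exon (SD, n = 3), and its range did not overlap that of Olig1, the next gene. Neurod1 had 9.28, 9.11 and 4.07 CPM in mESCs and 1.06, 0.663 and 0.92 CPM in EBs, with no overlap (log2 fold change -3.10, SE 0.38, adjusted p = 0.000277). Olig1 had 2.30, 2.51 and 0.554 CPM in mESCs and 0.173, 0.195 and 0.184 CPM in EBs (log2 fold change -3.31, SE 0.60, adjusted p = 0.00237). Here the mESC library of clone #7 was far below the others, yet still above every EB library.

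Atoh1 fell as well, from 0.730, 0.488 and 0.672 CPM to 0.303, 0.117 and 0.0736 CPM (log2 fold change -1.82, SE 0.50, adjusted p = 0.0183). The 3 genes that passed the filter on low counts were thus all called lower in EBs, where 20.2% of all 15799 tested genes were called lower, and 2 of the 3 passed the filter through the mESC libraries alone. The other 6 genes were too low to test. Neurog1 counts were 11, 8 and 18 in mESCs and 2, 3 and 1 in EBs, and Neurog2 counts were 13, 4 and 3 in mESCs and 0, 0 and 1 in EBs, with no overlap for either. Olig3 went the other way, with 6, 9 and 6 counts in mESCs and 23, 21 and 10 counts in EBs. Neurod4, Ptf1a and Olig2 had at most 3 counts in any control library of either stage.

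**Figure D1:**
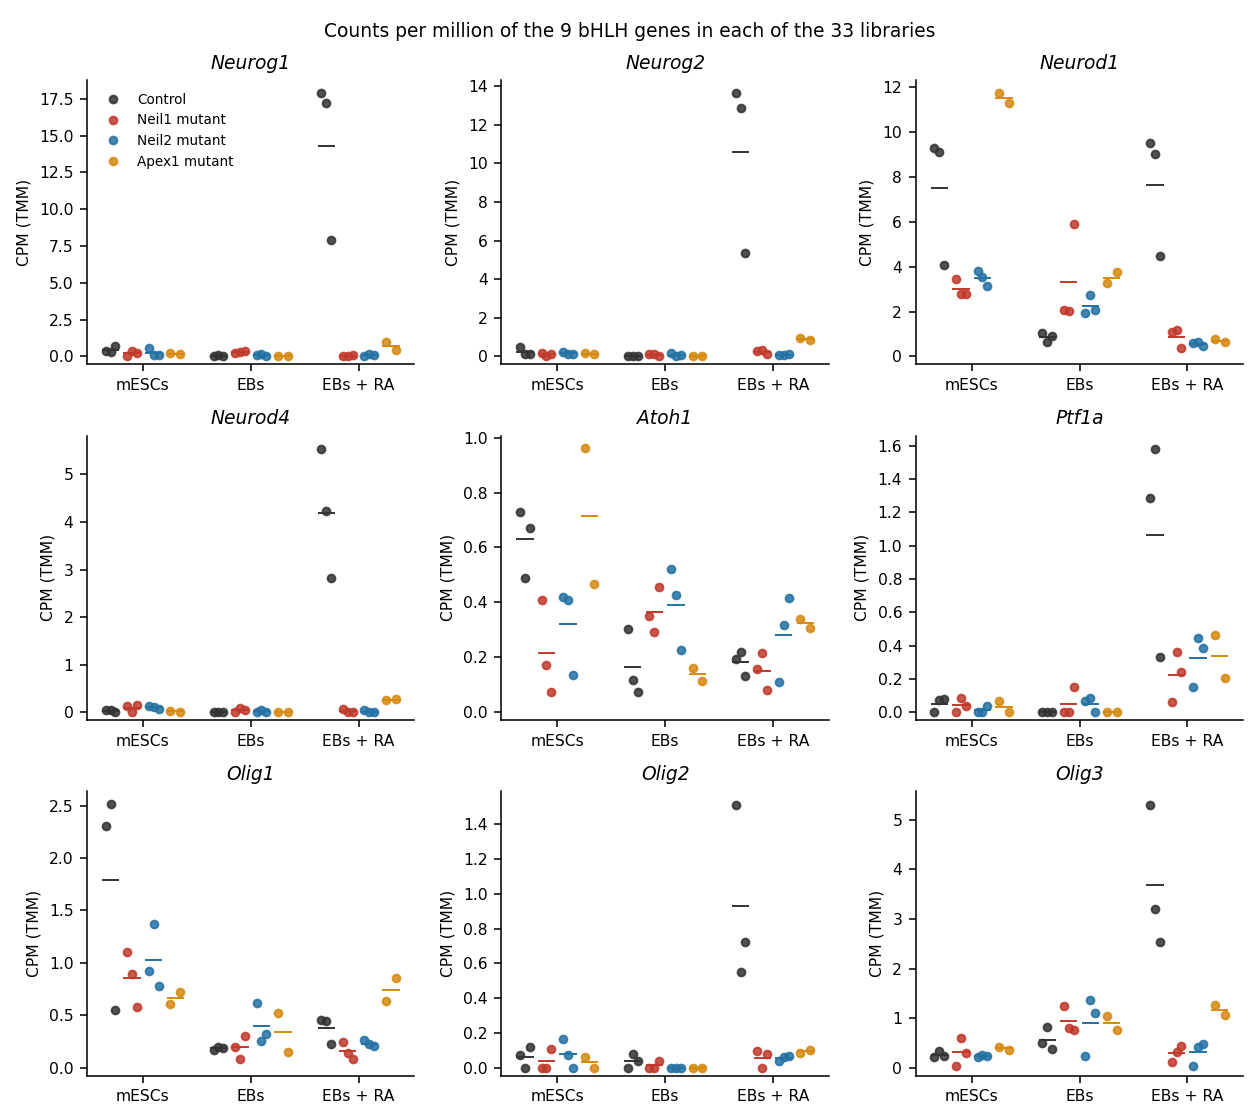
CPM (linear axes, a different scale in each panel) of the 9 genes in every library, by stage and genotype, with points for libraries and short lines for group means. Neurog1, Neurog2, Neurod4 and Olig2 are high in the 3 control libraries of EBs + RA only, whereas Neurod1 is also high in mESCs and Olig1 and Atoh1 have their highest control means there.

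The second comparison asks what RA induces in control EBs. Neurog1 rose from 0.0432, 0.117 and 0.0368 CPM in EBs to 17.9, 17.2 and 7.90 CPM in EBs + RA, a 218-fold ratio of means (log2 fold change 7.82, SE 0.52, adjusted p = 1.02e-05). Neurog2, its paralog in neuronal commitment, rose from 1 count in all 3 EB libraries to 935 counts, or 13.6, 12.9 and 5.33 CPM (adjusted p = 1.97e-05). With 1 count below it, the Neurog2 ratio of 1045 has an exact 95% counting interval of 187 to 41332. Both neurogenins were lowest in clone #7 among the induced controls, at less than 0.5 times either other clone.

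The NeuroD factors rose too. Neurod4 had 0 counts in all control EBs and 5.54, 4.23 and 2.83 CPM in EBs + RA (adjusted p = 6.06e-05), at least 139-fold higher when the 3 EB libraries together are set to the floor of 3 counts. Neurod1 reached 9.50, 9.01 and 4.48 CPM (log2 fold change 3.13, SE 0.35, adjusted p = 0.000135), so that its level after RA was close to that in mESCs (group means 7.66 ± 2.77 and 7.49 ± 2.96 CPM, SD, n = 3).

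Among the OLIG factors, Olig3 rose from 0.497, 0.819 and 0.368 CPM to 5.31, 3.20 and 2.53 CPM (log2 fold change 2.76, SE 0.40, adjusted p = 0.000554). Olig2 rose from 0, 2 and 1 counts to 47, 15 and 22 counts, or 1.51, 0.552 and 0.724 CPM (adjusted p = 0.000971), a ratio of 31.3 with an exact 95% counting interval of 10.4 to 155. Olig1 had 0.451, 0.441 and 0.230 CPM after RA, above every EB library, but too few counts for the test.

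Ptf1a and Atoh1 were not tested either. Ptf1a had 0 counts in control EBs and 40, 43 and 10 counts after RA, or 1.29, 1.58 and 0.329 CPM, at least 34.7-fold higher against the floor, and in every induced library it was above every uninduced one. Atoh1 stayed at 6, 6 and 4 counts, and its induced and uninduced libraries overlapped. All 6 genes that passed the filter were called higher, where 23.3% of 15919 tested genes were called higher and 20.7% lower, and 4 of them passed it through the induced libraries alone.

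Per exon length the order in control EBs + RA was Neurog1 (8.63 ± 3.36 CPM per kb, SD, n = 3), Neurog2 (4.76 ± 2.06), Neurod1 (2.81 ± 1.01), Olig3 (1.80 ± 0.71), Neurod4 (1.26 ± 0.40), Ptf1a (0.707 ± 0.434), Olig2 (0.381 ± 0.210), Olig1 (0.172 ± 0.057) and Atoh1 (0.0871 ± 0.0218). The ranges of neighbours overlapped down to Olig2, so that no 2 neighbours among the first 7 differed beyond the spread between clones. Within each clone, however, the order from Neurog1 to Ptf1a was the same in 3 of 3 clones. Olig2 and Olig1, and Olig1 and Atoh1, did not overlap.

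**Figure D2:**
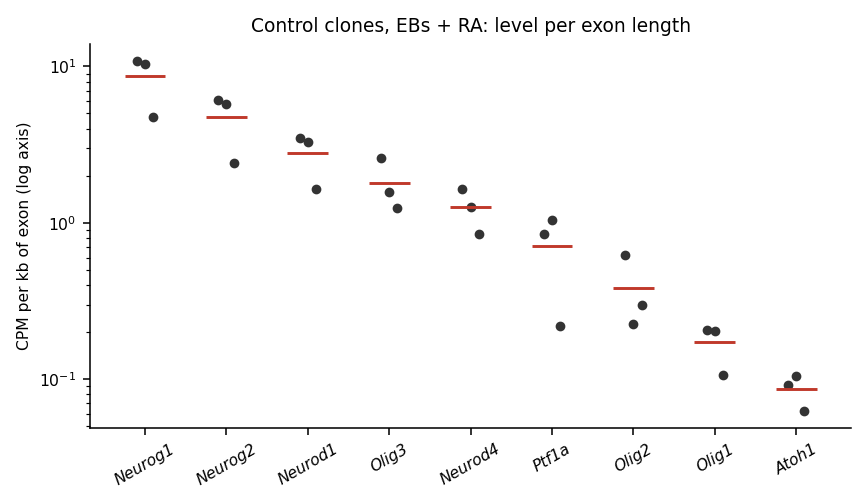
Level per kb of exon (log axis) of the 9 genes in the 3 control clones of EBs + RA, with points for clones #1, #4 and #7 from left to right and a line at the mean. The rightmost point, clone #7, is the lowest for every gene except Olig2.

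The third comparison asks whether the mutants lose this induction, by comparing each with the control clones in EBs + RA. Neurog1 was nearly absent from the Neil mutants, with 2, 0 and 3 counts in Neil1-mutant and 0, 6 and 2 counts in Neil2-mutant clones compared with 555, 468 and 240 counts in controls. Its mean CPM was 0.424% of control in the Neil1 mutant (log2 fold change -7.84, SE 0.64, adjusted p = 0.000175) and 0.605% in the Neil2 mutant (log2 fold change -7.24, SE 0.65, adjusted p = 0.000346). The Apex1 duplicates kept more, at 1.02 and 0.411 CPM or 4.98% of the control mean (log2 fold change -4.34, SE 0.52, adjusted p = 0.00178). No library of any mutant reached the lowest control.

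Neurog2 followed the same pattern. It had 0.280, 0.361 and 0.120 CPM in the Neil1 mutant (log2 fold change -5.37, SE 0.52, adjusted p = 0.000347), 0.0741, 0.0952 and 0.139 CPM in the Neil2 mutant (log2 fold change -6.63, SE 0.53, adjusted p = 0.000265) and 0.973 and 0.856 CPM in the Apex1 mutant (log2 fold change -3.52, SE 0.47, adjusted p = 0.00253). All of these lie below the lowest control clone, at 5.33 CPM.

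Neurod4, which acts downstream of neurogenins, had 2 counts over the 3 Neil1-mutant libraries (adjusted p = 0.000322) and 1 count over the 3 Neil2-mutant libraries (adjusted p = 0.000309), compared with 373 counts in controls. The control level was 179 times that of the Neil1 mutant with an exact 95% counting interval of 49.1 to 1480, and 367 times that of the Neil2 mutant with an interval of 65.5 to 14541. The Apex1 duplicates held 6 and 8 counts, or 6.29% of the control mean (log2 fold change -3.95, SE 0.45, adjusted p = 0.00149).

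Neurod1, at the end of the cascade, had 1.09, 1.19 and 0.360 CPM in Neil1-mutant clones, or 11.5% of the control mean (log2 fold change -3.13, SE 0.48, adjusted p = 0.0023), and 0.593, 0.666 and 0.452 CPM in Neil2-mutant clones, or 7.45% (log2 fold change -3.74, SE 0.38, adjusted p = 0.000559). In the Apex1 duplicates it had 0.762 and 0.651 CPM, or 9.22% (log2 fold change -3.42, SE 0.43, adjusted p = 0.00208). Every mutant library was below the lowest control.

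Olig2 had 3, 0 and 2 counts in the Neil1 mutant, 1, 2 and 2 in the Neil2 mutant and 2 and 3 in the Apex1 mutant, compared with 47, 15 and 22 in controls. It was called lower in each (log2 fold changes -3.92, -3.93 and -3.23 with adjusted p = 0.00527, 0.00255 and 0.0148). Olig3 had 0.124, 0.325 and 0.440 CPM in the Neil1 mutant (log2 fold change -3.67, SE 0.51, adjusted p = 0.00144) and 0.0370, 0.412 and 0.487 CPM in the Neil2 mutant (log2 fold change -3.53, SE 0.61, adjusted p = 0.0041). In the Apex1 mutant it was at 1.27 and 1.06 CPM, or 31.7% of the control mean (log2 fold change -1.65, SE 0.39, adjusted p = 0.0229). The lowest control had 2.53 CPM, so none of the groups overlapped with controls for either gene. When the Apex1 duplicates were summed to 1 library, Olig2 (adjusted p = 0.104) and Olig3 (adjusted p = 0.151) were no longer called in that mutant, and leaving out either duplicate had the same outcome (adjusted p between 0.114 and 0.163).

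Ptf1a stood apart from the other genes because control clone #7, at 0.329 CPM, fell within the range of the mutants. It had 0.0622, 0.361 and 0.240 CPM in the Neil1 mutant (log2 fold change -2.30, SE 0.72, adjusted p = 0.0366) and 0.148, 0.444 and 0.383 CPM in the Neil2 mutant (log2 fold change -1.69, SE 0.63, adjusted p = 0.0706). Both calls depended on single libraries. Without control clone #1 or #4 the adjusted p rose to 0.107 and 0.12 in the Neil1 mutant and to 0.194 and 0.22 in the Neil2 mutant, where leaving out mutant clone #1 or #14 gave 0.148 and 0.139. In the Apex1 mutant, at 0.465 and 0.205 CPM, it was not called (log2 fold change -1.67, SE 0.72, adjusted p = 0.136), although it was without control clone #7 (log2 fold change -2.11, adjusted p = 0.00249).

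Atoh1 and Olig1 were too low to test in EBs + RA of the Neil mutants, and their libraries overlapped with controls. Olig1 had 0.635 and 0.856 CPM in the Apex1 mutant, above all 3 controls, but the difference did not pass (log2 fold change 1.01, SE 0.44, adjusted p = 0.142). Atoh1 had 8 and 9 counts there and 4 to 6 in controls and was not tested.

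In all, 7 of the 9 genes passed the filter in each Neil comparison and were called lower, where 19.9% (Neil1) and 16.6% (Neil2) of all tested genes were called lower and 21.2% and 18.3% higher, and 5 of the 7 passed it through the control libraries alone. In the Apex1 comparison 6 of 8 were called lower, where 10.9% of tested genes were called lower and 13.9% higher, and 3 of the 8 passed through the controls alone. In bulk RNA, fewer cells of a type and less RNA per cell cannot be told apart. Summed levels of the genes listed as neuron and neural progenitor markers were also lower in each mutant in EBs + RA. Neither sum is particular to neural cells, since control mESCs held 438 to 465 and 488 to 614 CPM of them. The summed level of 8 neuron markers was 161 to 257 CPM in controls, 30.6 to 38.2 CPM in Neil1-mutant, 29.0 to 45.0 CPM in Neil2-mutant and 44.6 to 49.4 CPM in Apex1-mutant libraries, with none of the 8 at 0 in any group. That of 7 neural progenitor markers was 336 to 633 CPM in controls and 63.4 to 119, 108 to 158 and 226 to 240 CPM in the mutants, in the same order. Their part in the loss of the bHLH genes was not tested.

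**Figure D3:**
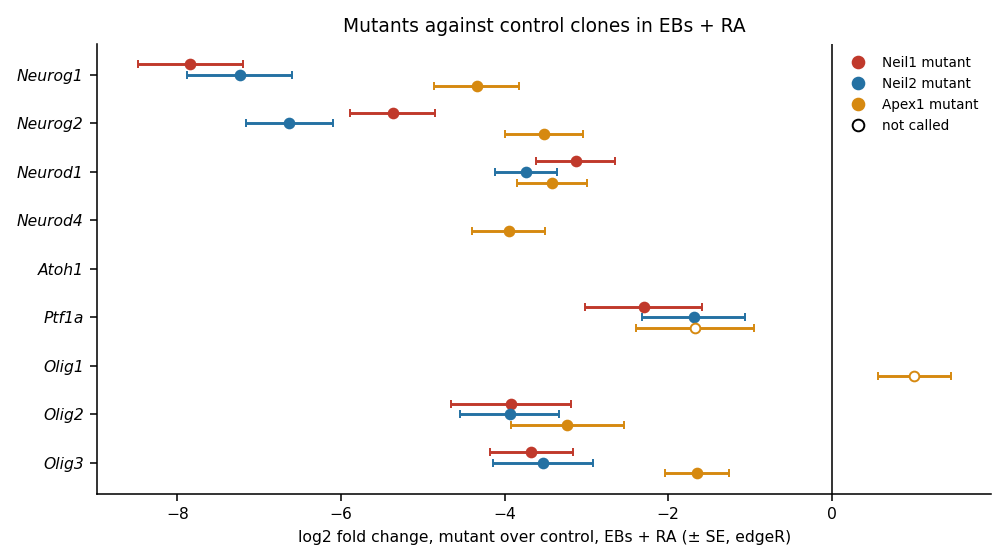
Log2 fold change of each mutant over the control clones in EBs + RA, with bars of 1 SE from edgeR and open points for genes that were not called. Neurod4 in the Neil mutants is left out because those groups held at most 2 counts, and Atoh1 and Olig1 are left out where they were too low to test.

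The mutants were then compared with each other in EBs + RA, where no control library enters. Of the 3 genes tested between Neil1 and Neil2 mutants (Neurod1, Ptf1a and Olig3), 0 were called, and 0 of 15884 genes were called in the whole table by edgeR (1608 genes at an unadjusted p below 0.05, and up to 546 calls under another setting). Neurod1 differed by 0.64 on the log2 scale (SE 0.47, adjusted p = 0.605). The Apex1 mutant held more neurogenin transcript than either Neil mutant. Neurog1 was higher than in the Neil1 mutant (log2 fold change 3.47, SE 0.84, adjusted p = 0.0245) and the Neil2 mutant (2.87, SE 0.84, adjusted p = 0.0588), and Neurog2 likewise (1.81, SE 0.50, adjusted p = 0.0379, and 3.07, SE 0.47, adjusted p = 0.0088).

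Olig1 was also higher in the Apex1 mutant than in the Neil1 (log2 fold change 2.17, SE 0.54, adjusted p = 0.028) and Neil2 mutants (1.66, SE 0.43, adjusted p = 0.0405). Olig3 was higher than in the Neil1 mutant (log2 fold change 1.98, SE 0.53, adjusted p = 0.0338), whereas the difference from the Neil2 mutant was not called (1.84, SE 0.66, adjusted p = 0.104). Thus 4 of 5 and 3 of 6 tested genes were called higher, where 16% and 10% of all tested genes were, and 4 of the 5 and 3 of the 6 passed the filter through the Apex1 libraries alone. None of these calls held when the Apex1 duplicates were summed (adjusted p between 0.106 and 0.227) or when either duplicate was left out (0.102 to 0.385).

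In EBs without RA, also taken on day 8, the picture was different. In EBs, Neurod1 was higher in every mutant library than in every control, at 2.05, 2.05 and 5.89 CPM in the Neil1 mutant, 1.95, 2.73 and 2.05 CPM in the Neil2 mutant and 3.27 and 3.74 CPM in the Apex1 mutant, compared with 1.06, 0.663 and 0.920 CPM in controls. It was called higher in the Neil1 mutant (log2 fold change 1.90, SE 0.44, adjusted p = 0.0104), the Neil2 mutant (1.33, SE 0.31, adjusted p = 0.025) and the Apex1 mutant (1.99, SE 0.28, adjusted p = 0.000482). Neil1-mutant clone #11 stood far above its group, and without it the change was 1.19 (adjusted p = 0.0149). The Neil2 call was lost without control clone #4, the lowest control (log2 fold change 1.17, adjusted p = 0.117).

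Of the other genes only Olig3 could be tested in EBs, and it was not called in any mutant, with log2 fold changes of 0.73, 0.66 and 0.72 and adjusted p = 0.193, 0.544 and 0.218. In the Neil2 mutant it had 0.228, 1.37 and 1.09 CPM, and without clone #1, the low one, it was called higher (log2 fold change 1.13, adjusted p = 0.0689). So 1 of 2 tested genes was called in each mutant, where 10.4%, 8.65% and 11.9% of tested genes were called higher. Neurog1 had 5 to 9 counts in Neil1-mutant EBs and 1 to 3 in control EBs, without overlap, but was not tested. Markers of neurons, summed, were at 142 to 191 CPM in Neil1-mutant, 105 to 204 CPM in Neil2-mutant and 144 to 145 CPM in Apex1-mutant EBs and 112 to 115 CPM in control EBs, with the Neil2 range overlapping that of controls. Neural progenitor markers summed to 513 to 631, 488 to 634 and 521 to 621 CPM in the mutants and 372 to 384 CPM in controls, and pluripotency markers to 2140 to 2465, 1599 to 2533 and 2356 to 2434 CPM and 1364 to 1434 CPM. Control mESCs held 438 to 465 CPM of the neuron markers and 488 to 614 CPM of the progenitor markers. Neither sum was thus particular to neural cells. The part of these marker sums in the Neurod1 difference was not tested.

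The RA response within each genotype showed that Neurod1 changed in opposite directions. RA raised it in every control clone. By contrast, all 3 Neil1-mutant clones had less Neurod1 with RA than without it (log2 fold change -1.92, SE 0.55, adjusted p = 0.0173). Leaving out the EBs of clone #11 gave -1.24 (adjusted p = 0.0696). Neurod1 was also lower with RA in all Neil2-mutant clones (-1.96, SE 0.34, adjusted p = 0.00309). It was lower in both Apex1 duplicates too (-2.32, SE 0.30, adjusted p = 1.48e-05, a test on technical duplicates of 1 clone only). The difference between the responses was called for each mutant in the test of the interaction of genotype and RA, at -5.01 (SE 0.71, adjusted p = 0.000459) for Neil1, -5.08 (SE 0.49, adjusted p = 5.21e-05) for Neil2 and -5.43 (SE 0.52, adjusted p = 0.000125) for Apex1 on the log2 scale.

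Olig3 behaved similarly in the Neil mutants. It fell with RA in all 3 Neil1-mutant clones (log2 fold change -1.68, SE 0.49, adjusted p = 0.0196). In the Neil2 mutant it went from 0.228, 1.37 and 1.09 to 0.0370, 0.412 and 0.487 CPM, lower within each clone, but with overlap between the groups it was not called (-1.46, SE 0.79, adjusted p = 0.175). With the clone as a replicate block, which fits the division of each clone's EBs, it was called lower (-1.57, adjusted p = 0.0194), so that 2 genes rather than 1 were called in that comparison. In the Apex1 mutant Olig3 was at 1.05 and 0.756 CPM without and 1.27 and 1.06 CPM with RA (0.36, SE 0.35, adjusted p = 0.405). The difference from the control response was called in the Neil1 (-4.39, SE 0.66, adjusted p = 0.00068), Neil2 (-4.21, SE 0.93, adjusted p = 0.0122) and Apex1 mutants (-2.38, SE 0.59, adjusted p = 0.0238). The Apex1 call was lost with the duplicates summed (adjusted p = 0.176) and without 1 EB duplicate (0.113).

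The neurogenins were too low in the Neil mutants for a test of RA within a genotype. Neurog1 counts went from 21 in Neil1-mutant EBs to 5 in EBs + RA, and from 9 to 8 in the Neil2 mutant, compared with 6 to 1263 in controls, each over 3 libraries. Neurog2 counts went from 6 to 22 in the Neil1 mutant, higher with RA within each clone (ratio 3.04, exact 95% counting interval 1.19 to 9.15), and from 7 to 9 in the Neil2 mutant (1.12, 0.371 to 3.54), compared with 1 to 935 in controls. The interaction was called for Neurog1 (-10.02, SE 0.91, adjusted p = 2.08e-05 for Neil1, and -8.16, SE 1.22, adjusted p = 0.00105 for Neil2), Neurog2 (adjusted p = 0.00364 and 0.0015) and Neurod4 (adjusted p = 0.00475 and 0.0515, the latter call being lost without the EBs of Neil2-mutant clone #11). The Apex1 mutant had 0 counts of both neurogenins in EBs and, after RA, 24 and 12 counts of Neurog1 (adjusted p = 0.000341) and 23 and 25 of Neurog2 (adjusted p = 2.9e-05). Both were thus called higher with RA, by tests on technical duplicates of 1 clone only, and Neurog2 was at least 15.5-fold higher against the floor. With 0 counts in EBs without RA the interaction could not place the Apex1 response below that of controls (adjusted p = 0.83 and 0.909).

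Ptf1a, at 2, 10 and 6 counts after RA in the Neil1 mutant and 4, 14 and 11 in the Neil2 mutant, compared with 4 counts over 3 libraries in EBs of each, was too low to test within a genotype. Its ratio was 3.73 (exact 95% counting interval 1.23 to 15.1) in the Neil1 and 6.32 (2.22 to 24.7) in the Neil2 mutant. The interaction for Ptf1a was called in the Neil1 mutant (adjusted p = 0.0877), a call that 7 of 12 fits without 1 library lost, and not in the Neil2 mutant (adjusted p = 0.116). Olig1 rose with RA in the Apex1 mutant (log2 fold change 1.16, SE 0.52, adjusted p = 0.0736), from 0.524 and 0.151 to 0.635 and 0.856 CPM. Without the second EB duplicate this was not called (0.51, adjusted p = 0.538), nor without the second induced duplicate (0.93, adjusted p = 0.286). The Olig1 response of the Neil2 mutant was below that of controls (-1.85, SE 0.65, adjusted p = 0.0899), but 10 of 12 fits without 1 library lost this call.

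Over the 9 genes the interaction was called lower for 6 of 7 tested in the Neil1, 6 of 9 in the Neil2 and 2 of 8 in the Apex1 mutant. The shares over all tested genes were 14.8%, 7.98% and 6.14%. Which genes passed this filter through the induced controls alone was not examined. Neurog1, Neurog2, Neurod4 and Ptf1a held 6, 1, 0 and 0 counts over control EBs. With RA the controls held 1263, 935, 373 and 93. Genes that enter through induced controls are not free in direction, so the shares are no measure for them. Olig2 was not called in any mutant. It held at most 3 counts over the EBs of any genotype, so the test could not place its response. Also not called were Atoh1 and Ptf1a in the Neil2 mutant. In the Apex1 mutant these were Neurog1, Neurog2, Neurod4, Ptf1a and Olig1. Within the genotypes, 2 of 2 tested genes were called lower with RA in the Neil1 mutant, 1 of 2 in the Neil2 mutant and 1 of 5 in the Apex1 mutant, where 25.2%, 21% and 22.6% of tested genes were, and 3 of 5 were called higher in the Apex1 mutant, where 26.3% were. Both genes of the Neil1 mutant passed the filter through the EB libraries alone, and the 3 higher genes of the Apex1 mutant through the induced libraries alone.

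**Figure D4:**
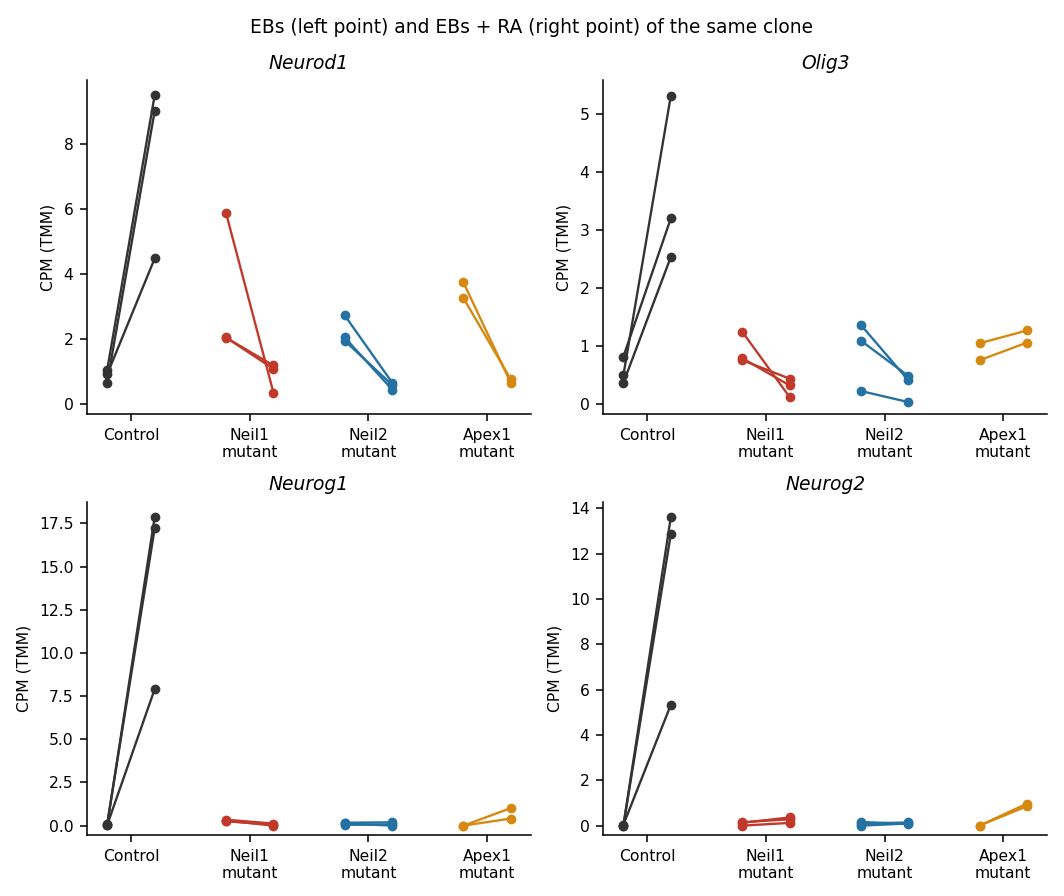
CPM (linear axis) of Neurod1, Olig3, Neurog1 and Neurog2 in EBs (left point) and EBs + RA (right point), joined by clone, with the Apex1 duplicates joined by their number. The lines of Neurod1 rise in the 3 control clones and fall in the 6 Neil-mutant clones and in both Apex1 duplicates. Those of Olig3 rise in controls and fall in the 6 Neil-mutant clones.

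In mESCs, before any differentiation, 3, 4 and 5 of the 9 genes were tested in the Neil1, Neil2 and Apex1 mutants. The others were too low to test. Of the tested genes, edgeR called 0 in any mutant. At an unadjusted p below 0.05 there were Neurod1 and Atoh1 in the Neil1 mutant, Neurod1 in the Neil2 mutant and none in the Apex1 mutant. The mutants were compared here after the counts of the 9 genes had been seen. Neurod1 had 3.43, 2.80 and 2.77 CPM in the Neil1 mutant and 3.82, 3.53 and 3.14 CPM in the Neil2 mutant, below the 9.28, 9.11 and 4.07 CPM of controls without overlap. The edgeR test did not call it (log2 fold change -1.34, SE 0.34, unadjusted p = 0.00401, adjusted p = 0.129, and -1.13, SE 0.32, unadjusted p = 0.00632, adjusted p = 0.157), with 1.82% and 1.83% of all genes called in either direction, whereas the DESeq2 Wald test did (adjusted p = 0.00653 and 0.0197). Without control clone #7, the low one, edgeR called Neurod1 lower in both (-1.64, adjusted p = 0.0139, and -1.43, adjusted p = 0.00305), and Olig1 as well (-1.51, adjusted p = 0.0456, and -1.26, adjusted p = 0.0335). In the Apex1 mutant Neurod1 was at 11.7 and 11.3 CPM, above all controls (0.62, SE 0.34, adjusted p = 0.259), and Olig1 was called lower only without control clone #7 (-1.86, adjusted p = 8.21e-05), where 16.9% of genes were called in the comparison of all libraries. These shares do not hold for fits without 1 library. Such fits called up to 2011, 1494 and 6154 genes in the Neil1, Neil2 and Apex1 mutants. With all libraries 283, 286 and 2751 genes were called.

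The genes around the bHLH factors were counted from lists by role. Over all tested genes in EBs + RA, 19.9%, 16.6% and 10.9% were called lower in the Neil1, Neil2 and Apex1 mutants. Called higher were 21.2%, 18.3% and 13.9%. RA called 23.3% of tested genes higher and 20.7% lower in control EBs. Genes high only in induced controls pass the filter through them, and which listed genes did so was not examined. In control EBs, RA raised 6 of 7 tested other neural bHLH factors, among them Nhlh2 (log2 fold change 8.25). In EBs + RA, 6 of 6 were lower in the Neil1 and in the Neil2 mutant, with medians of -4.22 and -4.39 on the log2 scale, and 5 of 7 in the Apex1 mutant with a median of -1.91, compared with medians between -0.02 and 0.00 over all tested genes. Nhlh1, a factor of newly born neurons, had log2 fold changes of -5.63, -6.44 and -3.91 in the Neil1, Neil2 and Apex1 mutants.

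The dimer partners changed less. All 3 E proteins, with which proneural factors form heterodimers, were lower in both Neil mutants (medians -1.33 and -1.19) and 2 of 3 in the Apex1 mutant (-0.51). Tcf12, for example, changed by -1.33, -1.19 and -0.51 on the log2 scale. Their antagonists, the ID proteins, were lower for 2 of 4 in the Neil1, 3 of 4 in the Neil2 and 3 of 4 in the Apex1 mutant, with Id3 at log2 fold changes of -1.67, -1.47 and -0.63, whereas Id1 was higher in the Neil2 mutant (0.54).

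The HES and HEY repressors of proneural genes were counted next. Of 6 tested, 3 were lower and 1 was higher in the Neil1 mutant and 4 were lower and 1 was higher in the Neil2 mutant, and of 7 tested 3 were lower and 1 was higher in the Apex1 mutant. Hes5, the Notch target of neural progenitors, had log2 fold changes of -5.85, -6.00 and -5.02, from 8.23 CPM in controls to at most 0.247 CPM in the group means. The exceptions were Hey2, which was higher in the Neil1 (1.28) and Apex1 mutants (0.87), and Hes7 in the Neil2 mutant (1.29).

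Targets shared by proneural factors were lower for 9 of 16 and higher for 3 in the Neil1 mutant, lower for 10 and higher for 2 in the Neil2 mutant, and lower for 11 of 16 in the Apex1 mutant, with medians of -2.37, -2.07 and -2.01. Dcx, the microtubule protein of migrating neurons, had log2 fold changes of -6.21, -5.32 and -3.48, and Insm1, a zinc-finger factor of neuronal and endocrine precursors, -4.47, -4.71 and -3.56. Myt1, a zinc-finger factor of neuronal differentiation, had -5.38, -5.28 and -3.53. In control EBs RA had raised 13 of these 16 genes.

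More specific branches differed in how far they moved. Of the dorsal interneuron genes downstream of Atoh1 and Ptf1a, 5 of 7 were lower in each Neil mutant and 5 of 8 in the Apex1 mutant, with 1, 1 and 2 higher, and Lhx1 and Pax2, which mark inhibitory interneurons, had log2 fold changes of -3.73 and -2.18 in the Neil1, -3.14 and -2.74 in the Neil2 and -2.48 and -2.35 in the Apex1 mutant. Of the sensory neuron genes downstream of neurogenins, 5, 3 and 2 of 7 were lower and 0, 1 and 1 higher. The neurotrophin receptor Ntrk2 was lower in each (-4.45, -3.75 and -2.12), although glial and other neural cells carry it too.

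Motor neuron genes downstream of Olig2 were few. Of 3, 4 and 4 tested genes, 2, 2 and 0 were lower and 0, 1 and 2 higher, and Isl1, which sensory neurons and other tissues also use, was lower in the Neil mutants (-2.04 and -1.57) and higher in the Apex1 mutant (1.34). Of 7 tested oligodendrocyte lineage genes, 1, 0 and 0 were lower and 1, 1 and 2 higher, with Mbp, a myelin protein, higher in each (0.58, 0.51 and 0.80). These genes were not induced by RA in control EBs either, where 1 of 7 was lower and 0 higher. Of 16 tested neural tube patterning factors, 10 were lower in each mutant and 3, 2 and 1 higher, with Dbx1 at -9.61, -9.24 and -5.01 on the log2 scale.

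**Figure D5:**
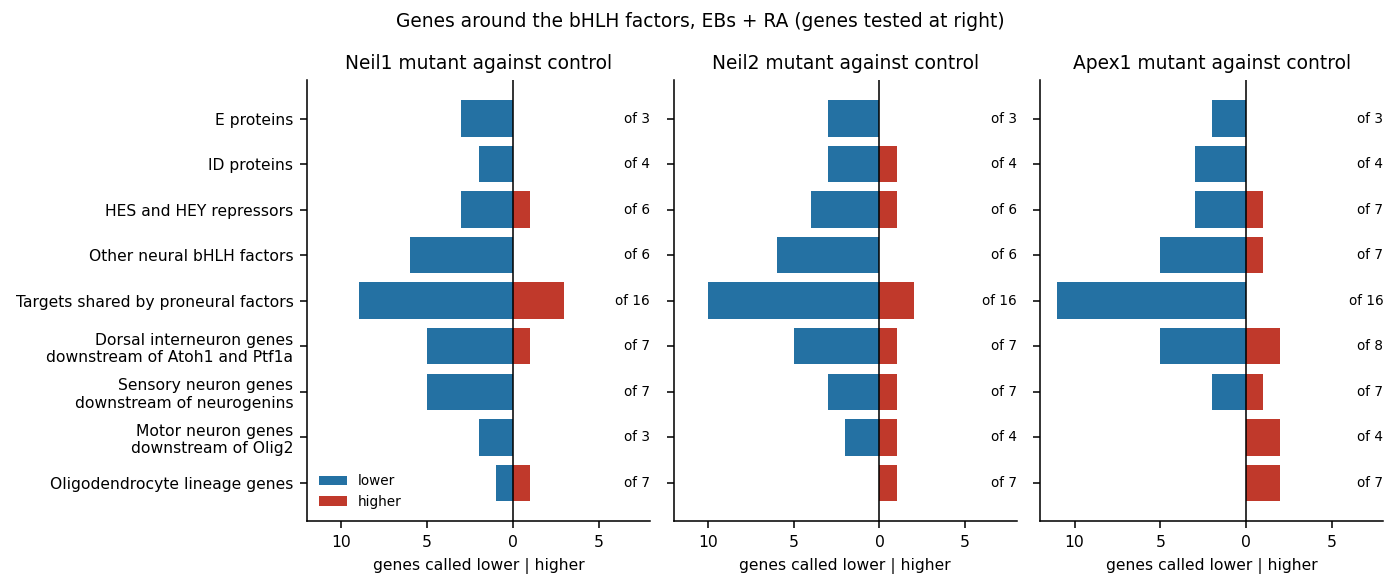
Number of genes of each list called lower (left) or higher (right) in each mutant against control in EBs + RA, with the number of genes tested at the right of each panel. Other neural bHLH factors and the shared targets of proneural factors were mostly lower, whereas motor neuron genes and oligodendrocyte lineage genes had at most 2 calls in either direction.

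Markers of other cells were counted in the same way, beside the 21.2%, 18.3% and 13.9% of all tested genes called higher in the Neil1, Neil2 and Apex1 mutants and the 19.9%, 16.6% and 10.9% called lower. Neuron markers were lower for 8 of 8 in both Neil mutants and 7 of 8 in the Apex1 mutant, and neural progenitor markers for 7, 5 and 5 of 7. Pluripotency markers were higher for 6 of 6, 6 of 6 and 5 of 6, and their summed level was 270 to 365, 188 to 535 and 529 to 659 CPM compared with 78.0 to 121 CPM in controls. Of the endoderm and pancreas markers, which bear on Ptf1a, 1, 0 and 0 were lower and 3, 1 and 2 higher of 7, 7 and 9 tested. Of the mesoderm and blood markers, 1, 1 and 0 of 5, 6 and 6 tested were lower and 2, 4 and 3 higher. The hair cell and Merkel cell markers, which bear on Atoh1, had 0 lower and 1, 1 and 0 higher of 2, 3 and 3 tested.

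Across all 33 libraries, which share the stages and genotypes above, the genes most like each bHLH gene in log2 CPM were named as a description. Neurog1 was closest to Nell2 (Pearson r = 0.91), Insm1 (0.90) and St18 (0.90), Neurog2 to Nhlh1 (0.94), Pou3f3 (0.94) and Nhlh2 (0.93), and Neurod4 to Ltbp1 (0.94), Nhlh2 (0.93) and Pou3f2 (0.93). Neurod1 was closest to A930011O12Rik (0.91), Crmp1 (0.90) and Ank2 (0.89). The OLIG factors had different nearest genes, with Olig1 closest to Bai1 (0.85), Mmp11 (0.84) and Fbxo41 (0.84), Olig2 to Srrm4 (0.88), Neurod4 (0.86) and 2610017I09Rik (0.86), and Olig3 to Pcsk2 (0.86), Auts2 (0.82) and Plxnb1 (0.82). Ptf1a was closest to Ednrb (0.88), Tshz3 (0.87) and Atp6v0e2 (0.87). These values were taken over 15412 genes.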

How the data were processed

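Poly(A) RNA was prepared with the unstranded TruSeq RNA v2 kit. The deposited raw counts per gene were made by the authors with TopHat 2.0.9, Bowtie2 2.1.0 and HTSeq-count 0.5.4 on NCBIM37, with an iGenomes annotation, and the authors tested mutants against controls with DESeq2 1.6.3. Reads counted to no gene (21.8% to 30.4% of a library) were left out.

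Genes passing filterByExpr were tested on the counts with edgeR 4.0.16 (robust quasi-likelihood, TMM, Benjamini-Hochberg over all tested genes), with only the groups compared in a fit. SE is the absolute log2 fold change divided by the square root of F. Calls needed an adjusted p below 0.1 with a log2 fold change of more than 0.5 in size (interactions only the p). No fold change was fitted for print where a group held 3 counts or fewer. Count ratios have exact 95% intervals, which cover counting error only. In 20 comparisons, 3 of them in mESCs and added later, 16 lists with 140 genes were counted, of which 137 were matched by symbol. Up to 4 called genes per list with the largest change were eligible for naming, as were genes acting directly on a member, and 3 genes most alike per member. The 9 genes and the lists were chosen with earlier results of these data known. Clones pair EBs with EBs + RA by design. Deviations there correlated at 0.20 to 0.40 for the same clone and at -0.37 to 0.12 otherwise. The main tests did not use this pairing. The chi-square of all 30 pairs of libraries within groups was at least 5.94 per degree of freedom, so none was a duplicate deposit. Alternatives were DESeq2 1.42.0, RLE factors, total counts as library size, no filter, 1 fit of all 12 groups, a replicate block, summed Apex1 duplicates, an adjusted p below 0.05 and leaving out each library. The edgeR fits were tested on simulated counts.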

Additional observations from a re-analysis of the deposited data

Results flagged for a closer look

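The RA response of a mutant differed from that of the control clones, by the test of the interaction, for 14 results, all lower. Over all tested genes, 14.8%, 7.98% and 6.14% were called lower in the Neil1, Neil2 and Apex1 mutants. Genes with few counts outside the induced controls can enter the test through them, so their direction was not free. In the Neil1 mutant the differences were -10.02 for Neurog1, -5.01 for Neurod1 and -4.39 for Olig3 on the log2 scale, and adjusted p was 0.00364 for Neurog2, 0.00475 for Neurod4 and 0.0877 for Ptf1a. In the Neil2 mutant they were -8.16 for Neurog1, -5.08 for Neurod1, -4.21 for Olig3 and -1.85 for Olig1, and adjusted p was 0.0015 for Neurog2 and 0.0515 for Neurod4. In the Apex1 mutant they were -5.43 for Neurod1 and -2.38 for Olig3. With 1 library left out, Ptf1a in the Neil1 mutant kept its call in 5 of 12 fits. Olig1 in the Neil2 mutant did so in 2 of 12 and Neurod4 there in 11 of 12. Olig3 in the Apex1 mutant kept its call in 9 of 10 fits.

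Between mutants in EBs + RA, 7 differences passed the test. Over all tested genes, 16% and 10% were called higher in the Apex1 than in the Neil1 and Neil2 mutants. The Apex1 mutant was higher than the Neil1 mutant by 3.47 for Neurog1, 1.81 for Neurog2, 2.17 for Olig1 and 1.98 for Olig3, and higher than the Neil2 mutant by 2.87 for Neurog1, 3.07 for Neurog2 and 1.66 for Olig1 on the log2 scale. These 7 rest on technical duplicates of 1 Apex1 clone.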

How the results depend on the processing

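Of 700 values of single genes under another setting, 653 kept their direction and side of the threshold, 24 lost a call, 19 gained one and 4 changed sign. Of 663 with 1 library left out, 595, 48, 10 and 10 did. The sign changes were in values that were never called. For Ptf1a between Apex1 and Neil2 mutants they were 0.0128 with DESeq2, 0.0105 with all groups in 1 fit and 0.121 with the replicate block, and -0.68 to 0.49 with 1 library left out. For Olig3 between Neil1 and Neil2 mutants the block gave 0.0729, and leaving out 1 library gave -0.60 to 0.33. Leaving out 1 library gave -0.52 to 1.23 for the Olig1 response of the Apex1 mutant and -0.44 to 0.61 for Atoh1 in Apex1-mutant mESCs.

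In counts of the 9 genes called, 3 in control EBs against mESCs became 5 with all groups in 1 fit and 5 without the filter (3 to 5 with 1 library left out). In Neil1-mutant EBs 1 became 2 with all groups in 1 fit and 2 without the filter, and in Neil2-mutant EBs 1 ranged from 0 to 2 with 1 library left out. With RA against EBs, 2 in the Neil1 mutant became 5 with all groups in 1 fit, and 1 in the Neil2 mutant became 3 with all groups in 1 fit, 2 without the filter and 2 with the replicate block (1 to 3 with 1 library left out). For the Apex1 mutant, summing the duplicates left 1 of 2 interactions (1 to 2 with 1 library left out), 0 of 4 differences from the Neil1 mutant (0 to 4) and 0 of 3 from the Neil2 mutant (0 to 4), the last being 5 with all groups in 1 fit, 5 without the filter and 1 with the block. In mESCs, where the main count was 0 for each mutant, DESeq2 called 1 gene in Neil1 and 1 in Neil2 mutants, all groups in 1 fit called 2 in Neil1 and 1 in Apex1, no filter called 1 in Neil1 and 1 in Neil2, the block called 1 in Neil2 and 1 in Apex1, and leaving out 1 library called 0 to 2, 0 to 2 and 0 to 1. The cause was not tested. Clones pair EBs with EBs + RA, whereas same-clone mESCs and EBs of controls correlated at -0.11 to 0.13. Between genotypes same-numbered libraries share only a number (correlations of -0.30 to 0.40). The replicate block changed no other count by over 1.5 times, but it called Ptf1a in EBs + RA of the Apex1 mutant (-2.12, adjusted p = 0.000348) and in the Neil2 interaction (adjusted p = 0.0595).

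Counts over all genes that moved by over 1.5 times were 4068 in Apex1-mutant EBs (2602 to 4386 without 1 library), 4026 in Apex1-mutant EBs + RA (1400 to 5602 under other settings, 1027 to 5631 without 1 library), 2779 for its interaction (662 to 4192, 1196 to 5307), 5091 against Neil1 (789 to 6058, 746 to 5693), 3279 against Neil2 (244 to 3498, 315 to 4598), 283, 286 and 2751 in mESCs of Neil1, Neil2 and Apex1 mutants (0 to 2011, 1 to 1494 and 0 to 6154), 2545 in Neil2-mutant EBs (1407 to 3705 without 1 library), and 2581 for the Neil2 interaction (1618 to 4163), beside the 0 between Neil1 and Neil2 mutants (0 to 546). Neurod4, Ptf1a and Olig2 had at most 4 counts in any mESC or EB library and were tested in no comparison within or between those stages.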
